A study of Mus musculus with 15 samples.

Results

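Megabase windows of the mouse genome in which PU.1 bound chromatin assembled in vitro, but in which macrophages carrying the control vector had almost no PU.1 peak, are described here. The autosomes (build mm9) were cut into windows of 1 Mb from the start of each chromosome, and each peak was counted in the window that holds its midpoint. A window was a member if it had 10 or more in vitro peaks and at most 2 peaks in each of the 2 control lists. There were 585 members among 2482 autosomal windows (23.6%), and they held 12546 of the 57512 in vitro peaks. They are compared with the other 1768 windows that had 10 or more in vitro peaks. "Silent" refers only to PU.1 peaks, since transcription was not measured in the files used here.

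The study used macrophages grown for 7 days from the bone marrow of C57BL/6 mice, and chromatin made from their DNA, in 15 samples, of which 6 are chromatin immunoprecipitation (ChIP) libraries with an antibody against PU.1. The control cells (2 libraries) carried a retroviral vector with a hairpin against Renilla luciferase, named empty in the sample titles. The shPU.1 cells (2 libraries) carried the same inducible vector with a hairpin against PU.1. Per the labels' protocols, both were selected with puromycin at 3 µg/ml from day 3, given doxycycline at 0.5 µg/ml for 48 hours from day 5, and fixed in 1% formaldehyde for 10 min. The in vitro list came from 1 pair of libraries on nucleosomes that had been assembled from recombinant histones and naked DNA of untreated macrophages. These nucleosomes were mixed for 2 hours with macrophage nuclear extract depleted with normal IgG (PU.1 present) or with 8 µg of anti-PU.1 (PU.1 removed), and peaks were called on the first against the second. The sources used here do not give the age and sex of the mice, or whether replicates came from separate animals.

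PU.1 is a transcription factor of the ETS family that recognises a short purine-rich motif and is needed for macrophages to form. It is known as a pioneer factor: it can bind motifs in chromatin that is not yet open, keeps nucleosomes away from enhancers and marks macrophage enhancers together with other lineage factors. In a nucleus many of its motifs lie in chromatin that is packed or modified in ways that nucleosomes assembled from pure histones on short DNA fragments do not share.

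The lists held 57512 in vitro peaks, 30026 and 36759 peaks in control replicates 1 and 2, and 15122 and 27733 in shPU.1 replicates 1 and 2. They give no read counts, so depth is unknown for every list, and a shallower library gives fewer peaks. Windows and peaks are not replicates, so no p-value is given over them. The exact 95% intervals below cover the counting of windows or peaks within these libraries only.

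Most windows that were poor in PU.1 peaks in control cells were bound in vitro. Of 697 windows with at most 2 peaks in each control list, 88 had no in vitro peak at all and 24 more had 1 to 9, which leaves the 585 members, or 83.9% of the 697 (24.9% of all 2353 windows with 10 or more in vitro peaks). Of the 1785 windows with more than 2 peaks in a control list, 99.0% had 10 or more in vitro peaks. The 88 include windows without a peak in any list, such as those ahead of the first member on chromosome 1. The 1785 cannot include such windows. Whether reads can be mapped to these empty windows was not tested, so the lower share is not a measure of weaker binding. Of the 609 control-poor windows with at least 1 in vitro peak, 585 were members. The in vitro peaks were no denser in members than elsewhere. Members had 10 to 38 in vitro peaks with a median of 21, comparison windows 10 to 51 with a median of 25, and all autosomal windows a median of 23. The mean of 21.4 per member was 87.0% of the mean of 24.6 in comparison windows. Members made up 40.1% of windows with 15 to 19 in vitro peaks and 10.6% of those with 30 or more. Across the 2353 windows, the in vitro count had a Spearman correlation of 0.18 and 0.22 with the counts of control replicates 1 and 2 and of 0.23 and 0.21 with those of shPU.1 replicates 1 and 2. These correlations are a description over windows, which share libraries and base composition.

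The control counts chose the members and are given without a test. Member windows held 188 peaks of control replicate 1 and 261 of control replicate 2, which is 0.636% and 0.724% of the autosomal peaks of each list. No peak of either control list lay in 351 of the 585 members. The threshold cut through a gradual range: the 83 windows with 2 as their higher control count had 22.6 in vitro peaks on average, and the 70 windows with 3, just outside, had 23.6. Around the other limit, 4 windows with at most 2 control peaks had exactly 10 in vitro peaks and 5 had 9.

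**Figure D1:**
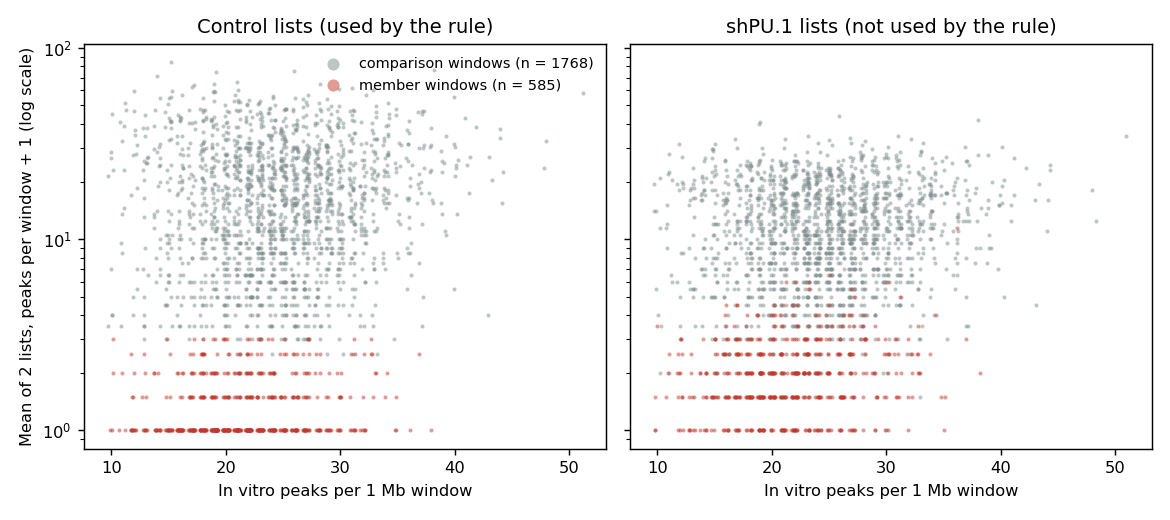
Each point is a 1 Mb window with 10 or more in vitro peaks; the x axis gives its in vitro peaks and the y axis, on a log scale, the mean of the 2 control lists (left) or the 2 shPU.1 lists (right) plus 1. Members (red, n = 585) lie low on the left by the rule; on the right they still lie low but overlap with comparison windows (grey, n = 1768). In vitro counts run from 10 to 38 in members and from 10 to 51 in comparison windows.

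The shPU.1 lists were not used to choose the windows. In shPU.1 replicate 1, members held 0 to 7 peaks with a mean of 0.682, against 8.15 in comparison windows. In shPU.1 replicate 2, members held 0 to 14 peaks with a mean of 1.51, against 14.9. The densities in members were thus 8.37% and 10.2% of those in comparison windows, in both of 2 libraries. The change across the control limit was gradual, so these ratios do not describe the windows next to it. The 83 members with 2 as their higher control count had 1.13 and 2.86 peaks of shPU.1 replicates 1 and 2. The 70 comparison windows with 3 had 1.66 and 3.17. With peaks of a score of at least 100 in every list, the mean over both libraries was 0.3 in members and 5.57 in comparison windows, in place of 1.10 and 11.5. Of the members, 447 (76.4%, exact 95% interval 72.8 to 79.8) had at most 2 peaks in each shPU.1 list, against 49 comparison windows (2.77%, 2.06 to 3.65) and 21.1% of all windows with 10 or more in vitro peaks. Taken singly, the list of replicate 1 had at most 2 peaks in 95.7% of members and 13.7% of comparison windows, and that of replicate 2 in 78.6% and 3.22%. Over all 2353 windows these shares were 34.1% and 22%. No peak of shPU.1 replicate 1 lay in 53.3% of members, against 14.6% of the 2353 windows, and none of replicate 2 in 29.1%, against 7.44%. The low counts were found at every level of in vitro binding: in windows with 30 or more in vitro peaks, members had 0.881 and 2.17 peaks of shPU.1 replicates 1 and 2, and comparison windows 9.39 and 16.2. Member and comparison windows were compared within each list and so share its depth. Between lists, fewer peaks can reflect fewer bound sites or fewer reads, and these cannot be told apart.

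No peak of either shPU.1 list lay in 106 members (18.1%), against 3 comparison windows (0.170%) and 4.63% of all 2353 windows. In 82 members neither the controls nor the shPU.1 lists had a peak, which the rule keeps from happening in comparison windows. The in vitro list had 1697 peaks in them. The fullest of these was chromosome 1, 117000001 to 118000000, with 32 in vitro peaks. The windows on chromosome 8 from 39000001 and on chromosome 19 from 49000001 had 30 each.

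**Figure D2:**
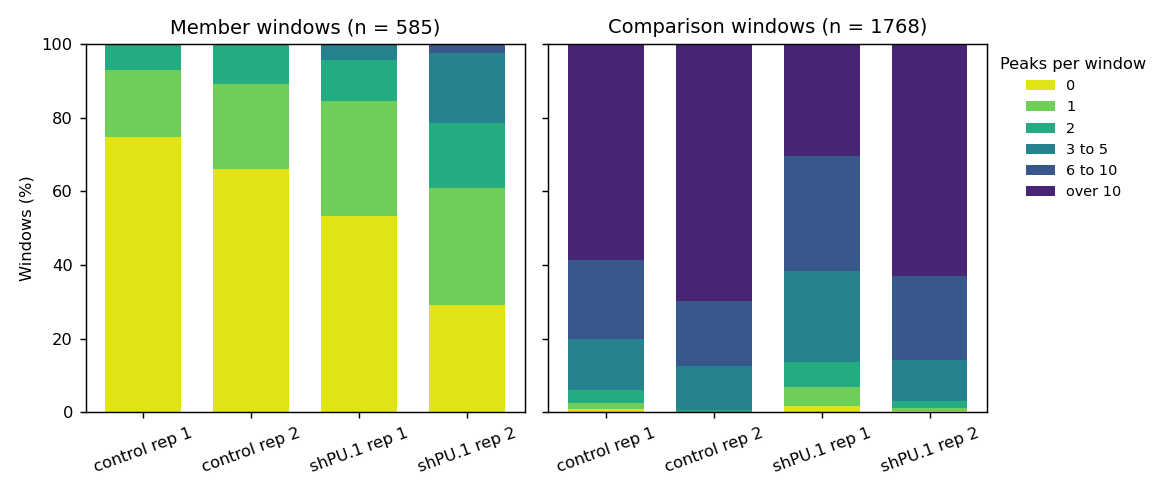
Bars give the percentage of windows (y axis) by their number of peaks in each of the 4 in vivo lists (x axis), for member windows (left) and comparison windows (right). Windows without a peak make up 74.9% and 66.2% of members in the control lists, where the rule allows at most 2 peaks, and 53.3% and 29.1% in the shPU.1 lists.

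Members held 399 peaks of shPU.1 replicate 1 (2.68% of its autosomal peaks, exact 95% interval 2.43 to 2.95) and 885 of replicate 2 (3.24%, 3.03 to 3.46). The control counts were capped by the rule, so these shares cannot be set against those of the controls. Choosing windows by 1 control list leaves the other as an outside value. The 693 windows with 10 or more in vitro peaks and at most 2 peaks of control replicate 1 had 1.06 peaks of control replicate 2, which is 5.02% of its mean in the remaining windows. The same windows had 9.96% of that mean in shPU.1 replicate 1 and 12.1% in replicate 2. The 598 windows chosen by control replicate 2 had 2.37% in control replicate 1, and 8.59% and 10.5% in shPU.1 replicates 1 and 2. In both choices each shPU.1 list was relatively fuller than the control list left out, with 1 control list against 2 shPU.1 lists in each case. Each percentage is relative to the mean of its own list, and depth is unknown. In number, the 693 windows had 0.853 and 1.89 peaks of shPU.1 replicates 1 and 2, against 1.06 of control replicate 2. The 598 windows had 0.704 and 1.56, against 0.393 of control replicate 1.

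Most of the shPU.1 peaks in members were weak and were not found in the second shPU.1 library. Of the 399 peaks of shPU.1 replicate 1 in members, 17.5% (exact 95% interval 13.9 to 21.6) lay on a peak of shPU.1 replicate 2, against 71.1% (70.3 to 71.8) of those in comparison windows and 69.6% of all its autosomal peaks. In the other direction, 7.80% (6.12 to 9.76) of the 885 peaks of replicate 2 lay on a peak of replicate 1, against 37.6% (37.0 to 38.2) and 36.6%. The median score percentile within the list was 34.5 for replicate 1 and 19.8 for replicate 2 in members, and 50.6 and 51.1 in comparison windows. The peaks were also narrower, with a median width of 410 bp against 450 bp in replicate 1 and 699 bp against 1091 bp in replicate 2. The cap on control peaks limits shared peaks in members and so bears on these values. Among peaks on no other in vivo list, the median percentile in replicate 1 was 31.7 in members and 26.0 in comparison windows. In replicate 2 it was 16.3 and 20.7. Among peaks on at least 1 other in vivo list it was 55.2 and 59.7 in replicate 1, and 56.0 and 62.9 in replicate 2.

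The rule caps sharing with the controls in members, so shPU.1 peaks that lay on no control peak were also counted alone. In shPU.1 replicate 1, 320 such peaks in members lay on no peak of replicate 2 either, which is 0.547 per window and 33.8% of the 1.62 per comparison window. Those that did lie on a peak of replicate 2 numbered 14, at 14.9% of the density in comparison windows, or 10.7% without the window on chromosome 3 from 25000001, which held 4 of them. In shPU.1 replicate 2 the 734 peaks found in that list alone came to 34.3% of the density in comparison windows. The 14 that lay on a peak of replicate 1 came to 17.6%, or 12.6% without that window. The peaks seen in both libraries are few, and the difference between these percentages was not tested.

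**Figure D3:**
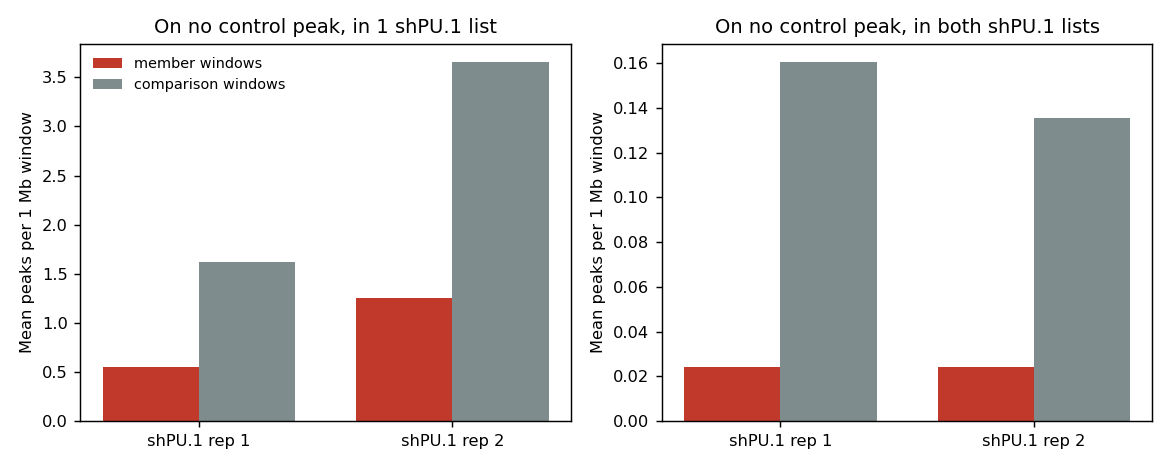
Bars give the mean number of shPU.1 peaks on no control peak per 1 Mb window (y axis, linear, with a different scale in each panel), for peaks found in 1 shPU.1 list (left) or lying on a peak of the other shPU.1 list (right), by list (x axis). Single-list peaks in members (red) reach 33.8% and 34.3% of the density in comparison windows (grey), and peaks seen in both lists 14.9% and 17.6%.

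For shPU.1 peaks on no other in vivo list, the share that lay on an in vitro peak was 6.25% in members (3.86 to 9.49) and 5.98% in comparison windows (5.14 to 6.92) for replicate 1, and 10.9% (8.74 to 13.4) and 11.8% (11.0 to 12.6) for replicate 2. Peaks on at least 1 other in vivo list, controls included, did so in 55.7% of cases in members against 34.1% in comparison windows for replicate 1 (exact 95% intervals 44.1 to 66.9 and 33.3 to 35.0), and in 48.3% against 33.1% for replicate 2 (40.1 to 56.6 and 32.5 to 33.8). Without this split, 16.0% of shPU.1 replicate 1 peaks in members lay on an in vitro peak, against 28.6% in comparison windows. For replicate 2 these shares were 17.3% and 27.9%. Over all autosomal peaks, 28.2% of shPU.1 replicate 1 and 27.5% of replicate 2 lay on an in vitro peak. The control peaks inside members met in vitro peaks more often than elsewhere where they belonged to control replicate 2. Of its 261 peaks in members, 49.0% lay on an in vitro peak, against 27.7% in comparison windows and 27.8% on all autosomes. For the 188 peaks of control replicate 1 the shares were 25.5%, 21.5% and 21.4%. The control lists chose the windows, so these values are a description. In control replicate 2 it was the peaks on no other in vivo list that met in vitro peaks most often in members, in 60.8% of cases against 26.8% in comparison windows, and shared ones did so in 41.5% against 28.0%. In control replicate 1 the order was the other way, with 13.5% against 6.88% for peaks on no other list and 33.3% against 24.6% for shared ones.

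Seen from the in vitro side, the sites in members went almost wholly without a peak in cells. Of the 12546 in vitro peaks in members, 65 (0.518%) lay on a peak of shPU.1 replicate 1 and 156 (1.24%) on one of replicate 2. In comparison windows the shares were 9.27% and 17.0%, and over all autosomal in vitro peaks 7.31% and 13.5%. The ratio of the share in members to that in comparison windows was 0.056 and 0.073 in the 2 lists. The mean of the 2 ratios, 0.065, became 0.107 when each in vivo list was shortened to its best-scoring 15122 peaks and 0.038 with no control peak allowed in a member. A peak in either shPU.1 list covered 181 in vitro peaks in members (1.44%, exact 95% interval 1.24 to 1.67), against 17.9% (17.5 to 18.2) in comparison windows and 14.2% of all autosomal ones. The median distance from an in vitro peak to the nearest shPU.1 peak was 183 kb in members and 19.5 kb in comparison windows. To the nearest control peak, which the rule bears on, it was 522 kb and 15.8 kb.

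The in vitro peaks of members resembled those of other windows in size. Their median score was 99.7, against 105.9 in comparison windows, with quartiles of 67.5 and 173 against 68.9 and 198. Their median width was 821.5 bp against 857 bp, and the median distance to the next in vitro peak was 31.0 kb against 27.2 kb. When the in vitro peaks were split into 10 equal classes by score (deciles), members held between 20.6% and 24.4% of each of the 9 lower deciles, and 16.9% of the highest (scores from 369.3 upwards). In vitro peaks covered 1.80% of member sequence and 2.18% of comparison windows.

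In vitro peaks with a high score lay on a shPU.1 peak less often in members than in comparison windows. Members had 8.37% and 10.2% of the peak density of comparison windows in shPU.1 replicates 1 and 2. The lower shares are thus not separate from the lower density. In both sets of windows the share was higher in the highest decile than in the lowest. In the highest decile of in vitro score, 2.31% and 4.10% of the 952 peaks in members lay on a peak of shPU.1 replicates 1 and 2, against 20.4% and 31.5% in comparison windows. Both shares were below those of the weakest decile of in vitro peaks in comparison windows, 4.29% and 9.69%. Within members the shares of the weakest decile were 0.379% and 0.835%. At an in vitro score of 1000 or more, 5 of 111 peaks in members (4.50%) lay on a peak of shPU.1 replicate 1 and 7 (6.31%) on one of replicate 2. Of the 650 such peaks in comparison windows, 27.1% and 36.6% did.

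**Figure D4:**
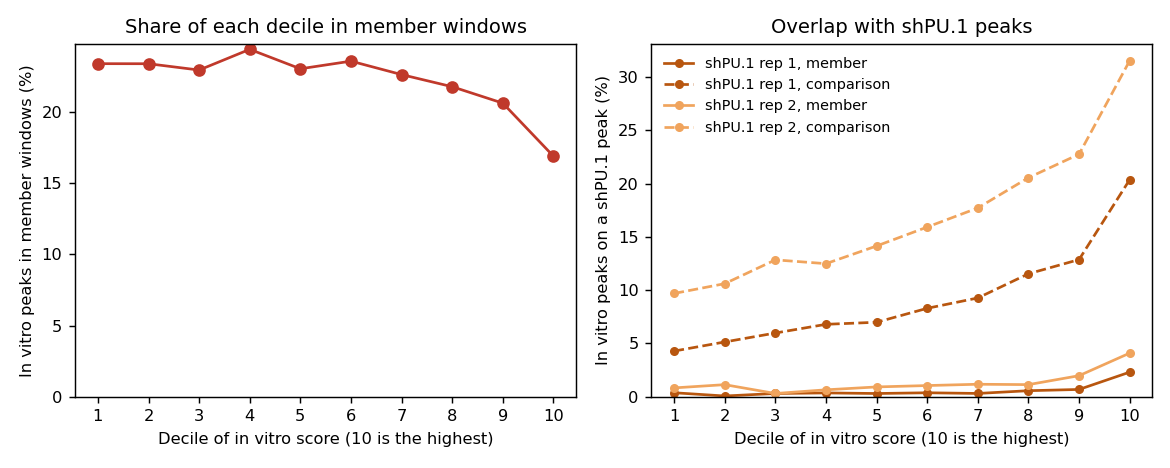
The left panel gives the percentage of in vitro peaks in member windows (y axis) for each decile of the in vitro score (x axis, 10 is the highest), and the right panel the percentage of in vitro peaks that lie on a peak of each shPU.1 list, in member windows (solid lines) and comparison windows (dashed lines). Members hold 16.9% of the highest decile, and their solid lines stay at or below 4.10%, while the dashed lines reach 20.4% and 31.5%.

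The strongest in vitro peaks of members were mostly unmatched in cells, but less often so than their other in vitro peaks. At a score of 1000 or more, 17 of 111 (15.3%) met a peak of any in vivo list, against 2.03% of all in vitro peaks in members. In comparison windows these shares were 64.6% and 26.2%. The in vivo lists include the controls, whose peaks the rule caps in members, so the contrast with comparison windows is a description. Of the 4 tied at a score of 3100, the first lay at chromosome 2, 89224801 to 89230929, was 6129 bp wide and met no in vivo peak. The second, at chromosome 8, 39139653 to 39141586, met none either. The other pair lay side by side at chromosome 17, 39979792 to 39983774 and 39983957 to 39985921. They were covered by peaks of all 4 in vivo lists, with scores of 3100 in both controls, and 1069.28 and 320.99 in shPU.1 replicates 1 and 2. The fifth, with a score of 2881.53, lay at chromosome 8, 44784061 to 44785309, and met no in vivo peak. Artefact regions were not filtered out, and it was not tested if such wide or saturated peaks mark PU.1.

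Among the 10 member windows richest in in vitro peaks, the first was chromosome 4, 69000001 to 70000000. It had 38 in vitro peaks, none in either control and 1 in each shPU.1 list. The next was chromosome 3, 56000001 to 57000000, with 37 in vitro peaks, 1 and 2 control peaks, and 1 and 3 shPU.1 peaks. The third, chromosome 3, 25000001 to 26000000, stood apart: it had 36 in vitro peaks, no control peak, and 7 and 14 peaks in shPU.1 replicates 1 and 2. Windows on chromosome 1 from 118000001, chromosome 2 from 161000001 and chromosome 11 from 42000001 had 35 in vitro peaks each and at most 1 peak in every in vivo list. The remaining 4 had 33 or 34 in vitro peaks, on chromosome 1 from 125000001, chromosome 9 from 27000001, and chromosome 6 from 36000001 and from 138000001. Their highest in vivo count was 4, in shPU.1 replicate 2 on chromosome 9.

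The window on chromosome 3 from 25000001 drew its shPU.1 peaks almost wholly from 1 stretch. Between 25415830 and 25455914, a length of 40.1 kb, 18 in vitro peaks with gaps under 5 kb covered 79.8% of the sequence, with scores from 58.97 to 767.84. The same stretch held 6 peaks of shPU.1 replicate 1 (scores 61.34 to 89.93) and 14 of replicate 2 (50.34 to 220.04). Of these, 6 and 13 lay on an in vitro peak. Neither control list had a peak there, and the rule allows each at most 2 in the whole window. Whether the stretch is an artefact was not tested. Chains of 5 or more in vitro peaks with such gaps were rare: 5 began in members and 21 in comparison windows. The longest of all began in a comparison window, at chromosome 1, 90107895 to 90207774. Its stretch held 23 in vitro peaks, 4 and 6 control peaks, and 15 and 13 peaks of shPU.1 replicates 1 and 2. The next longest chain in a member, 9 peaks at chromosome 4, 146790631 to 146811523, had 1 peak of shPU.1 replicate 2 and no other in vivo peak. The chains were chosen after their values were seen.

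At least 3 peaks in 1 or both shPU.1 lists were found in 138 members, 25 of them by replicate 1, 125 by replicate 2 and 12 by both. Of all 2353 windows, 65.9% reached that count in replicate 1, 78% in replicate 2 and 78.9% in at least 1 of them. After the window on chromosome 3, the highest was chromosome 8, 92000001 to 93000000, with 1 and 10 shPU.1 peaks and 2 and 1 control peaks. Chromosome 1, 15000001 to 16000000, had 4 and 6 against 1 and 2 in the controls. Chromosome 17, 62000001 to 63000000, also had 4 and 6, against 0 and 2. Chromosome 9, 29000001 to 30000000, had 3 and 7, and both control lists had 2. The other 5 of the 10 highest had 2 or 3 peaks of replicate 1 and 5 to 8 of replicate 2.

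Peaks of the 4 in vivo lists that shared at least 1 bp were also merged into regions. Members held 1414 of 52181 autosomal regions, and 1054 of these (74.5%) were seen in 1 shPU.1 list only. The share was 18.5% in comparison windows, and 10432 of all 52181 regions were of this kind. The cap on control peaks raises the share in members. Regions with a peak in all 4 lists numbered 45 in members. An in vitro peak was found in 26 of these (57.8%, exact 95% interval 42.2 to 72.3), against 39.4% of such regions in comparison windows. Among regions of every kind the share was 17.8% in members, 22.5% in comparison windows and 22.3% on all autosomes. A region at chromosome 6, 11875195 to 11876900, had scores of 1032.05 and 1646.83 for the control replicates and 214.74 and 469.51 for the shPU.1 replicates, and it had no in vitro peak. Another, at chromosome 16, 81437227 to 81438487, had scores of 546.8 and 734.62 for the control replicates and 208.99 and 1069.9 for the shPU.1 replicates, and it held an in vitro peak. These 2 had the highest mean of their score ranks within each list among the 45, although neither led in every list. They were singled out after their values were seen. Regions with a peak in both shPU.1 lists and no control list were 14 in members, 5.47% (3.02 to 9.01) of the 256 on autosomes. Members held 2.71% of regions of every kind, a share that the cap on control peaks lowers, so the 2 shares cannot be compared. Per window, such peaks in members came to 14.9% and 17.6% of the density in comparison windows for shPU.1 replicates 1 and 2. Of these 14 regions, 4 lay in the chromosome 3 window from 25000001.

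Many member windows adjoined each other. They formed 302 runs, of which 174 were a single window, and 411 of the 585 members (70.3%) had a member beside them. Members made up 23.6% of the 2482 autosomal windows, and 532 windows that were not members also lay directly beside a run. How many members would adjoin at that share without clustering was not computed. The 2 longest runs had 10 windows each. On chromosome 1, 110000001 to 120000000 held 223 in vitro peaks, 1 peak in each control list, and 5 and 4 peaks in the shPU.1 lists. On chromosome 14, 88000001 to 98000000 held 220 in vitro peaks, 2 and 4 control peaks and 6 and 11 shPU.1 peaks. Chromosome 14 also had the next run, 8 windows from 107000001 to 115000000 with 176 in vitro peaks, 1 and 0 control peaks and 1 and 4 shPU.1 peaks. Runs of 7 windows lay on chromosome 4 from 75000001 and on chromosome 8 from 99000001, with 173 and 161 in vitro peaks. In the first, shPU.1 replicate 2 had 12 peaks, and in the second 6.

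Counts of the shPU.1 lists stayed low up to the edges of these runs, and in vitro counts were similar on both sides. The rule draws these edges from the control and in vitro counts, so the values are a description and no test of an edge. In windows 3 or more steps inside a run, the shPU.1 lists had 9.64% and 5.86% of their mean over all autosomal windows, and the in vitro list 93.7%. In the first window outside a run these values were 89.0%, 89.0% and 105.5%. In the second they were 132.7%, 135.3% and 108.2%. The 45 windows deepest inside had a mean of 0.578 and 0.644 peaks of shPU.1 replicates 1 and 2, and the 430 at the inner edge 0.698 and 1.69.

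**Figure D5:**
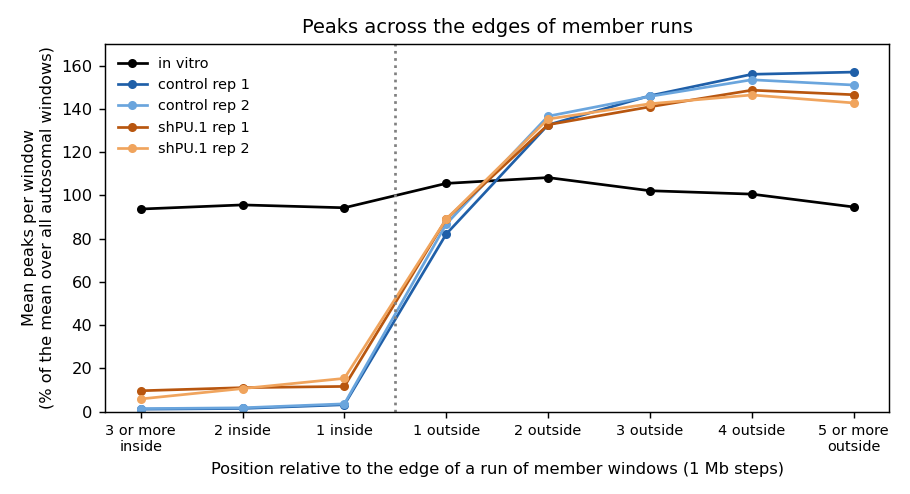
Lines give the mean number of peaks per window as a percentage of that list's mean over all autosomal windows (y axis), by the position of the window relative to the edge of a run of members (x axis, in steps of 1 Mb; the dotted line marks the edge). The in vitro list stays between 93.7% and 108.2%, while the shPU.1 lists lie at 15.4% or less inside the runs and at 89.0% in the first window outside. The edges are drawn by the rule from the control and in vitro counts.

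Every autosome had members. The share of windows with 10 or more in vitro peaks that were members ran from 15.1% on chromosome 11 and 15.3% on chromosome 19 to 30.9% on chromosome 12 and 34.5% on chromosome 14. When each chromosome was cut into 5 parts of equal length, members were 15.1% of such windows in the last part and between 24.8% and 31.6% in the other 4. On each chromosome the mean in vitro count was lower in members than in comparison windows. The narrowest gap was on chromosome 19, with 23.6 against 24.2. The files pair no gene with these windows, and no mm9 annotation or sequence was used here, so genes and motifs in them were not analysed.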

How the data were processed

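The submitters' processing notes name Bowtie 0.12.7, MACS 1.4 and the mouse build mm9, without parameters. Each deposited list gives the position of every peak and its score, by MACS convention 10 times the negative log10 of the p-value (lowest 50). Per the file names, in vivo libraries were called singly against an input. The score was used only within a list. Depth is unknown.

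Windows ran from position 0 of each autosome to the last peak in any list, and coordinates are counted from 1. Windows without a peak in any list were kept among the 2482. Overlap needed 1 bp. Shares carry Clopper-Pearson 95% intervals (SciPy 1.17.1, pandas 2.3.3, Python 3.11.15), which cover counting only. The code was tested on simulated peaks. Named windows were the 10 richest in in vitro peaks, the 10 highest by shPU.1 peaks among those with 3 or more in a list, the 5 longest runs and the 5 highest in vitro peaks. Members, windows and rules were chosen with earlier results of these data known. The 9 micrococcal nuclease samples were not analysed here. Alternatives changed the window origin and size, both thresholds, the score minimum, peak assignment, overlap, list length and the libraries used.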

Additional observations from a re-analysis of the deposited data

How the results depend on the processing

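Depth is unknown and the in vitro list has no replicate, which limits every value. Members numbered 351 with no control peak allowed, 1550 with 500 kb windows and 194 with 2 Mb windows, and 598 to 693 without 1 control replicate. The in vitro peaks in them were 8267 with 2 Mb windows, 7375 with no control peak allowed and 6140 with scores of 100 or more. Peaks of the shPU.1 lists per member, 1.10 on average over both lists, were 0.3 with scores of 100 or more (5.57 in comparison windows) and 2.13 in 2 Mb windows (20.6). Without 1 library they ran from 0.682 to 1.51. Members with at most 2 peaks in each shPU.1 list were 447 of 585. They were 687 of 844 with equal list lengths, where shorter control lists admit more members, and scaled limits gave 1182 of 1550 with 500 kb and 154 of 194 with 2 Mb windows. The ratio of the share of in vitro peaks on a shPU.1 peak, members to comparison windows, was 0.065 on average. It was 0.038 with no control peak, 0.092 with at most 4, 0.081 with 2 Mb windows, 0.107 with equal list lengths and 0.050 when 50% of the in vitro peak had to be covered. Without 1 library it ran from 0.056 to 0.092, the highest without control replicate 2. Median in vitro width and score in members were 814 bp and 97.95 with no control peak, and 959 bp and 174.2 with scores of 100 or more (1002 bp and 190.1 in comparison windows). Members with a member beside them were 215 with no control peak, 269 with scores of 100 or more, 1286 with 500 kb and 116 with 2 Mb windows. Leaving out the chromosome 3 window from 25000001, chosen after seeing the data, gave 1.08 shPU.1 peaks per member and a ratio of 0.058. No paired analysis was possible because the results compare windows within each list and come from no test between groups, and the rule caps the control counts that a pair would use.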

Other observations

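Chromosome X was outside the rule. Its 167 windows had 6.69 in vitro peaks on average, and 36 had 10 or more. Of these, 9 (25%) had at most 2 peaks in each control list, with 1.56 and 2.11 peaks of shPU.1 replicates 1 and 2 on average.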
